A study of Mus musculus with 48 samples.

Results

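Cerebellar RNA of 2 mouse models of spinocerebellar ataxia type 1 (SCA1) was compared at 12 weeks of age, to ask which genes changed differently in the 2 models. The ATXN1-82Q transgenic (Tg) mice carry a human *ATXN1* with 82 glutamine codons, are on an FVB/NJ background and were set against FVB/NJ wild-type (WT) controls. The *Atxn1* 154Q/2Q knock-in (KI) mice carry 154 codons in one allele of their own *Atxn1* and 2 in the other, are on a C57BL/6J background and were set against C57BL/6J WT controls. Each of the 4 groups held 3 male mice, so that 12 of the 48 libraries of the series were used here, and the 12 cerebellar libraries of mice 5 weeks old served for one comparison with the earlier age. The Tg protein is made from the *Pcp2* promoter, which is active in Purkinje cells, and the KI protein is made wherever *Atxn1* is normally on. The model therefore cannot be told apart from the strain, the promoter, the repeat length, the species of the protein or the table in which the libraries were normalized. A gene entered the comparison when its symbol had 1 entry in both 12 week tables and its mean was at least 0.5 FPKM (fragments counted on a gene, scaled by its length and by the depth of the library) in all 4 groups, and 12307 of 21939 such symbols passed. The measure throughout is the change from WT in Tg mice minus the change from WT in KI mice, on log2(FPKM + 0.1), called here the Tg minus KI difference.

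SCA1 is caused by a lengthened glutamine tract in ataxin-1, a nuclear protein that binds RNA and the transcriptional repressor Capicua. Purkinje cells, the output neurons of the cerebellar cortex, are the cells best known to suffer in this disease. They receive glutamate from granule cell axons and from climbing fibers, signal through G proteins, IP3 receptors and calcium stores, and are wrapped by Bergmann glia. A whole-tissue library mixes all of these cells, and fewer cells of a type cannot be told apart from less RNA per cell in such data.

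*Atxn1* (chromosome 13, 45549755-45965008, GRCm38, GENCODE annotation, protein-coding gene on the minus strand) did not mark the genotypes. Its level was 10.5, 10.2 and 10.9 FPKM in the WT FVB/NJ libraries and 10.8, 10.6 and 10.2 FPKM in Tg, and 9.43, 9.45 and 9.51 FPKM in WT C57BL/6J against 9.79, 9.53 and 10.6 FPKM in KI. The Tg minus KI difference was -0.07 ± 0.075 (standard error, SE, here and after every log2 value), with a 95% interval of -0.24 to 0.09. The values count reads on the mouse gene whatever their repeat, so neither the human transgene nor the expanded allele was checked by them.

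Between 12419 and 12875 genes reached 1 FPKM in a library, and the lowest FPKM values place the deepest library at 1.96 times the depth of the shallowest in the Tg table and at 1.75 times in the KI table. The tissue label was checked against cell type genes. Summed FPKM of 34 Purkinje cell genes was 5352 to 6492 in WT FVB/NJ and 5548 to 6588 in WT C57BL/6J, and that of 20 granule cell genes 2319 to 2708 and 1847 to 2651, so both cerebellar classes were present. Genes listed for neurons of neighboring brain did not have a common level. Whether neurons of the cerebellum also express them was not tested. Of these genes 3 are given, *Tac1* and *Tfap2d* having been chosen after their values were seen. *Tac1*, the substance P precursor, was at 0.566, 0.264 and 0.562 FPKM in KI and between 4.12 and 12.6 FPKM in WT C57BL/6J. *Tfap2d*, a transcription factor of the midbrain, was at 0.0523, 0.0159 and 0.0523 FPKM in KI and between 2.55 and 4.75 FPKM in WT C57BL/6J. In the Tg table *Tac1* was between 7.27 and 13.3 FPKM and *Tfap2d* between 2.01 and 4.33 FPKM. *Slc17a6*, a vesicular glutamate transporter of neurons such as those of brain stem, midbrain and thalamus, was at 6.01, 6.81 and 8.04 FPKM in KI and 41.1, 17.5 and 23.7 in WT C57BL/6J. It was at 31.8, 30.9 and 36.9 FPKM in Tg and 19.98, 19.9 and 29.3 in WT FVB/NJ. All 3 KI libraries thus stood below the WT libraries of their table on these genes, and replicate 1 of WT C57BL/6J was the highest of that table for *Slc17a6*. The Tg and KI tables were normalized separately, so their levels are not ranked against each other. Choroid plexus epithelium genes summed to between 113 and 2189 FPKM in the KI table and between 813 and 2565 FPKM in the Tg table.

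The effect of the genotype differed between the models for 1437 genes (limma, Benjamini-Hochberg adjusted p below 0.05 over all genes tested). The difference was positive for 687 genes (5.58% of those tested) and negative for 750 (6.09%). In the same fit Tg mice had 394 up-regulated (3.2%) and 926 down-regulated genes (7.52%) relative to WT controls, and KI mice 298 (2.42%) and 584 (4.75%). The number of differences was 736 without KI replicate 1, 816 without KI replicate 2, 877 without WT FVB/NJ replicate 1 and 907 without Tg replicate 3. The Tg count was 800 without either of the last 2 libraries, and the KI count between 360 and 433 with any 1 KI library left out, 543 without WT C57BL/6J replicate 1 and 561 without replicate 3. Most differences came from a call in 1 model. Of the genes with a called difference, 539 were also called in Tg alone and 390 in KI alone, 362 in neither, 84 in both with the same sign, and 62 in both with opposite signs. Of the 250 genes called in both models, 188 moved the same way, 169 of them down. Across all genes the log2 changes of the 2 models had a Pearson r of -0.09, given as a description of 12307 genes that are not independent. Both comparisons were centered near 0, with a median change over all genes of -0.02 in Tg and 0.01 in KI, which does not measure the size of the changes. Among called genes, 8.03% in Tg and 10.9% in KI changed by more than 1 on the log2 scale. Where all 3 mutant libraries lay outside the 3 WT libraries was common, in 29.5% of genes for Tg and 32.4% for KI. With the mean log2 level of *Slc17a6*, *Tac1* and *Tfap2d* as a covariate, an alternative chosen after seeing the data, limma called 0 differences, 1028 having an unadjusted p below 0.05. The median SE of the difference was then 0.34, against 0.11 without it, and the sign was the opposite for 799 of the 1437 genes. KI and WT C57BL/6J libraries did not overlap in the covariate, -0.59 to -0.10 against 2.54 to 3.77, so that the genotype and this level cannot be told apart in the KI table. The mice of a group are separate samples by the labels, and the p-values measure the spread between these samples.

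**Figure D1:**
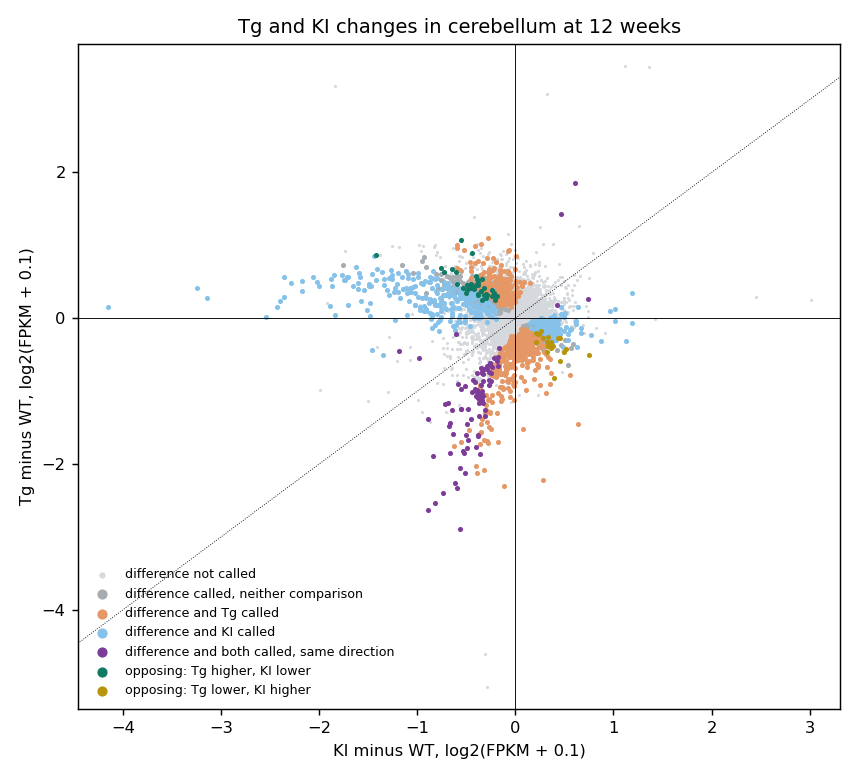
Change from WT in Tg mice (vertical axis) against change from WT in KI mice (horizontal axis), both on log2(FPKM + 0.1), for the 12307 genes tested; each point is a gene, colors give the calls, and the dotted line marks equal changes. Genes called only in Tg lie mainly below the horizontal zero line, genes called only in KI mainly left of the vertical zero line, and the 62 opposing genes in the upper left and lower right corners.

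Purkinje cell genes fell further in Tg than in KI cerebellum. Of the 36 genes on the list, 32 were tested. Of these, 29 were down-regulated in Tg, 10 in KI, and 26 had a called negative difference (over all genes 7.52%, 4.75% and 6.09%). The median log2 change of the tested genes was -1.28 in Tg and -0.28 in KI, against -0.02 and 0.01 over all genes tested. With any 1 library left out, the number with a called negative difference was between 25 and 27, and the number down-regulated in Tg was between 27 and 29. The KI count was 14 without WT C57BL/6J replicate 1 and 5 or 6 with any 1 of the other 5 libraries of the KI table left out. With the covariate of neighboring brain genes 28 were down-regulated in Tg and 9 in KI, and 0 differences were called, the median difference being 0.01 in place of -0.98.

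Genes of G protein and IP3 signaling showed the pattern plainly. *Rgs8*, a regulator of G protein signaling (chromosome 1, 153653025-153700323, protein-coding), was at 239.9, 217 and 192 FPKM in WT FVB/NJ and 44.3, 46.6 and 43.3 in Tg, and at 234, 282 and 274 in WT C57BL/6J and 170.2, 183 and 162 in KI. Mutant and WT libraries did not overlap in either model, and the log2 change was -2.27 ± 0.088 in Tg and -0.61 ± 0.088 in KI, a difference of -1.65 ± 0.12 (adjusted p = 6.73e-05). *Gng13*, a G protein gamma subunit, went from 555, 505 and 419 to 78.6, 93.8 and 82.1 FPKM in the Tg table and from 375, 453 and 444 to 234, 233 and 249.97 FPKM in the KI table. Its difference was -1.71 ± 0.15 (adjusted p = 0.000125). *Itpr1*, the IP3 receptor itself, stood at 471, 467 and 347 against 122, 138 and 134 FPKM for Tg and at 362, 455 and 439 against 370.5, 393 and 346 FPKM for KI. The Tg libraries were far below every WT library, the KI libraries overlapped theirs, and the difference was -1.52 ± 0.17 (adjusted p = 0.000336). *Itpka*, which phosphorylates IP3, and *Car8*, which binds the IP3 receptor, had differences of -1.63 ± 0.16 and -1.43 ± 0.14. Both were called in Tg and neither was called in KI, where their changes were -0.40 ± 0.11 and -0.28 ± 0.10.

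Calcium handling genes of Purkinje cells behaved alike. *Atp2a3*, the calcium pump SERCA3, was at 77.8, 66.1 and 59.1 FPKM in WT FVB/NJ and 13.9, 17.2 and 16.4 in Tg, and at 53.9, 66.1 and 67.6 in WT C57BL/6J and 49.2, 52.1 and 48.4 in KI. All KI libraries were below all WT libraries here too, but the KI change of -0.32 ± 0.11 was not called (adjusted p = 0.109), and the difference was -1.77 ± 0.16. *Calb1*, the buffer calbindin, had a difference of -1.13 ± 0.15, and *Cacna1g*, a T-type calcium channel, one of -1.23 ± 0.13. *Pcp4*, a calmodulin-binding peptide chosen after its values were seen, fell in both models, by 1.26 ± 0.073 and 0.64 ± 0.073 on the log2 scale, and its difference of -0.62 ± 0.10 was smaller than those above.

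The difference of 5 members was not called (*Cck*, *Gad1*, *Nrep*, *Plcb4* and *Skor2*, the last 4 named after their values were seen). *Cck*, a neuropeptide precursor, was down-regulated in Tg by 1.29 ± 0.081 and in KI by 0.95 ± 0.081, and its difference was not called (adjusted p = 0.0821). *Foxp2*, a transcription factor named here after its values were seen, had the only called positive difference on the list, 0.97 ± 0.15, with -0.80 ± 0.11 in KI and 0.18 ± 0.11, not called, in Tg. *Ebf1*, a transcription factor described among the opposing genes below, was the only member called higher in KI.

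**Figure D2:**
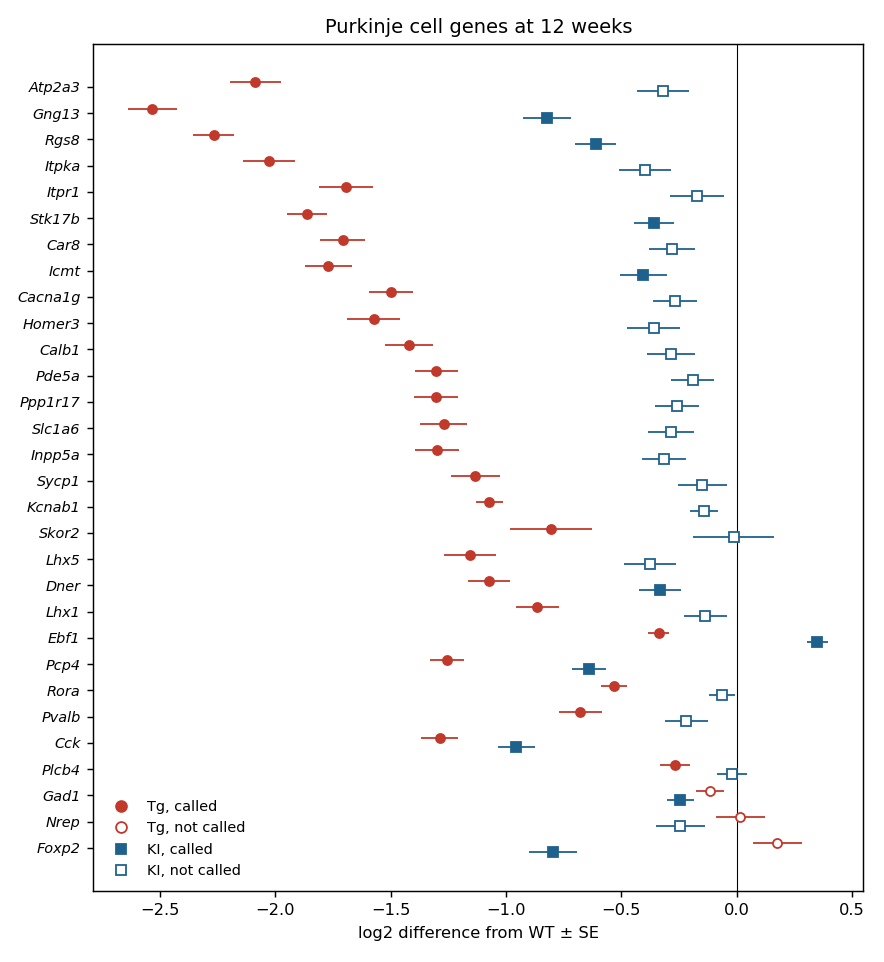
Log2 change from WT ± SE of 30 of the 32 Purkinje cell genes tested, in Tg (circles) and KI (squares), ordered by their difference; filled symbols passed adjusted p = 0.05 in that model. Tg values reach -2.53 (*Gng13*), while no KI value is below -0.95 (*Cck*).

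Among genes that averaged 1 FPKM or more in all 4 groups, the largest negative differences outside that list were called falls in Tg with a smaller change in KI. *Tnc*, described with the Bergmann glia genes, had a difference of -2.49 ± 0.22 but was below that floor, with a Tg mean of 0.803 FPKM. *Fgf7*, a fibroblast growth factor, was at 16.4, 15.5 and 15.5 FPKM in WT FVB/NJ and 1.82, 2.15 and 2.15 in Tg, and at 6.04, 7.07 and 7.29 in WT C57BL/6J and 3.99, 4.99 and 4.70 in KI. Its changes of -2.89 ± 0.10 and -0.57 ± 0.10 were both called, and the difference was -2.33 ± 0.14 (adjusted p = 8.55e-06). *Nek2*, a kinase of the centrosome, was at 9.84, 10.6 and 8.42 against 1.82, 1.90 and 1.87 FPKM for Tg and at 2.40, 4.01 and 3.76 against 3.05, 3.25 and 2.89 FPKM for KI. Its KI and WT libraries overlapped, and the difference was -2.19 ± 0.22. *Gchfr*, which regulates GTP cyclohydrolase, and *Col18a1*, a basement membrane collagen, fell in both models, with differences of -1.74 ± 0.24 and -1.74 ± 0.17.

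The largest positive differences were falls in KI with little change in Tg. *Nrgn*, neurogranin (chromosome 9, 37544492-37552904, protein-coding), a calmodulin-binding protein of forebrain neurons, was at 61.3, 40.2 and 55.8 FPKM in WT C57BL/6J and 3.58, 2.27 and 2.69 in KI, and at 52.0, 43.6 and 57.5 in WT FVB/NJ and 48.6, 65.5 and 56.1 in Tg. The KI change was -4.16 ± 0.18, the Tg change 0.15 ± 0.18 and the difference 4.31 ± 0.26 (adjusted p = 8.55e-06). *Sst*, the peptide somatostatin, and *Tcf7l2*, a transcription factor abundant in the thalamus, followed with 3.67 ± 0.39 and 3.42 ± 0.28. *Rasgrf2*, a Ras activator, *Cpne6*, a copine, and *Camkv*, a kinase-like vesicle protein, had 2.93 ± 0.38, 2.68 ± 0.27 and 2.64 ± 0.33. For each of these 6 genes every KI library was below every other library of the KI table, and no Tg change was called.

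These genes moved with *Slc17a6*, *Tac1* and *Tfap2d*, the markers of neighboring brain described above. Of 31 genes on the list of neighboring brain neurons found in both tables, 9 passed the floor of 0.5 FPKM in all 4 groups. The list could therefore not be counted as a whole. Among the 9, 2 had a called positive and 1 a called negative difference (33.3%, against 11.7% of all genes). In KI 3 were called lower and 2 had a change above 0, and in Tg 1 was called higher and 2 lower. The summed level of the 31 genes, which include the markers just named, was 133 to 136 FPKM in KI and 163 to 195 in WT C57BL/6J. It was 193 to 229 in Tg and 200.1 to 212 in WT FVB/NJ. *Slc17a6* had a difference of 2.43 ± 0.36 and a KI change of -1.88 ± 0.25. The receptor gene *Grm5* and the channel genes *Kcnc2*, *Kcnip2*, *Scn3b* and *Gabrg3* shared the pattern, with KI changes of -1.61, -2.07, -2.43, -1.20 and -1.18. At 5 weeks these genes already differed between libraries of 1 group. *Nrgn* was then at 61.1, 11.9 and 2.35 FPKM in WT C57BL/6J and 49.7, 2.09 and 16.0 FPKM in KI, and its Tg minus KI difference was 0.17 ± 1.57. Tissue taken with the cerebellum and the KI genotype cannot be told apart for these genes at 12 weeks, because all 3 KI libraries are low.

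**Figure D3:**
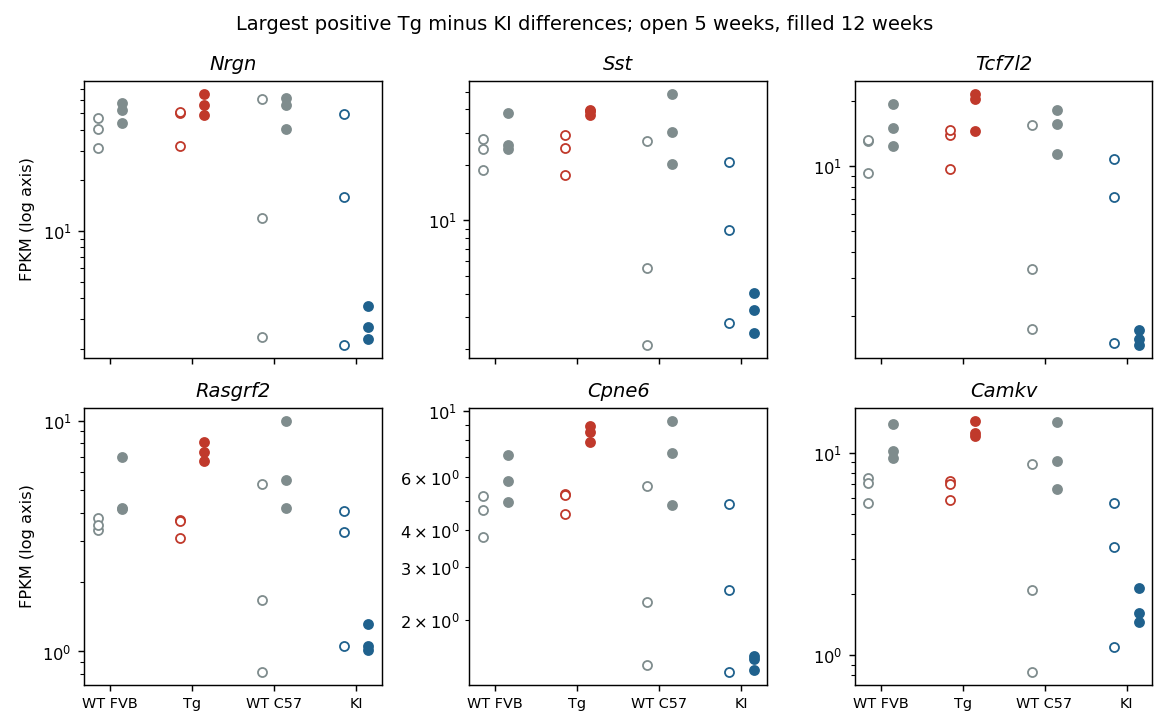
FPKM on a log axis of the 6 genes with the largest positive Tg minus KI differences, in each library of the 4 groups at 5 weeks (open) and 12 weeks (filled); each point is a library, and the tables were normalized separately. At 12 weeks the 3 KI libraries are below the WT libraries of their table in each panel, and at 5 weeks WT C57BL/6J and KI libraries spread widely.

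Genes that moved in opposite directions in the 2 models numbered 62. Of these, 38 were up-regulated in Tg and down-regulated in KI (0.309% of genes tested), and 24 were down-regulated in Tg and up-regulated in KI (0.195%). In all of them the mutant libraries did not overlap the WT libraries of their table in either model, which the calls nearly required. The number rested on single libraries, being 14 without KI replicate 2, 17 without KI replicate 1, 28 without KI replicate 3, 29 without WT C57BL/6J replicate 3, 36 without Tg replicate 2 and 98 without WT C57BL/6J replicate 2. With WT C57BL/6J replicate 1 left out it was 66, of which 24 were among the 62. Only 4 genes of the first kind (*C1ql3*, *Pdlim2*, *Sema3c*, *Tprkb*) and 2 of the second (*Calb2*, *Ebf1*) were opposing with every library left out in turn.

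Those 6 are given in full, *C1ql3*, *Ebf1* and *Tprkb* having been chosen after their values were seen. *Pdlim2*, a cytoskeletal PDZ and LIM domain protein (chromosome 14, 70164218-70177681, protein-coding), was at 9.32, 7.65 and 8.53 FPKM in WT FVB/NJ and 13.5, 13.8 and 12.2 in Tg, and at 18.8, 14.3 and 14.4 in WT C57BL/6J and 8.74, 9.02 and 10.6 in KI. The changes were 0.63 ± 0.11 and -0.73 ± 0.11, and the difference was 1.36 ± 0.16 (adjusted p = 0.000503). *Sema3c*, a secreted guidance cue, was at 3.48, 3.69 and 3.64 against 4.62, 5.22 and 5.07 FPKM for Tg and at 4.92, 4.18 and 4.23 against 3.34, 3.33 and 3.28 FPKM for KI. It rose by 0.45 ± 0.078 in Tg and fell by 0.41 ± 0.078 in KI on the log2 scale. *C1ql3*, a secreted synaptic protein of the C1q family, was at 9.83, 9.78 and 10.3 against 12.2, 12.7 and 14.5 FPKM and at 12.7, 11.8 and 11.3 against 8.03, 8.42 and 8.74 FPKM, and *Tprkb*, a subunit of a tRNA-modifying complex, had changes of 0.39 ± 0.044 and -0.24 ± 0.044. *Calb2*, calretinin, a calcium buffer of granule and unipolar brush cells (chromosome 8, 110137502-110168210, protein-coding), was at 189.7, 181 and 176 FPKM in WT FVB/NJ and 128, 133 and 124 in Tg, but at 209, 279 and 274 in WT C57BL/6J and 439, 412 and 419 in KI. The changes were -0.51 ± 0.091 and 0.75 ± 0.091, and the difference was -1.26 ± 0.13 (adjusted p = 0.000247). *Ebf1* was at 16.0, 16.5 and 15.9 against 12.8, 12.6 and 12.8 FPKM and at 15.7, 17.5 and 17.1 against 21.2, 22.0 and 21.0 FPKM, with changes of -0.34 ± 0.047 and 0.35 ± 0.047.

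Windows at RefSeq starts of 3 of these genes are shown because they stand for both directions (GRCm38.p6, 250 bases before to 50 after the start, 5′ to 3′ on the gene's strand, capitals marking CG sites). By the GENCODE positions all 3 windows lie inside the gene, past its 5′ end. That end is at 17574281 for *Sema3c*, 13011806 for *C1ql3* and 44617317 for *Ebf1*. The 2 annotations thus place these starts differently, and the windows are not shown to be promoters. The *Sema3c* window (chr5:17574566-17574865, plus strand) has 75.7% G or C and 42 CG sites, that of *C1ql3* (chr2:13010815-13011114, minus strand) 66.3% and 25, and the first of 2 *Ebf1* starts (chr11:44617850-44618149, plus strand) 36.7% and 9. The median over the 9026 tested genes with such a window was 61.7% and 21 sites.
Sema3c: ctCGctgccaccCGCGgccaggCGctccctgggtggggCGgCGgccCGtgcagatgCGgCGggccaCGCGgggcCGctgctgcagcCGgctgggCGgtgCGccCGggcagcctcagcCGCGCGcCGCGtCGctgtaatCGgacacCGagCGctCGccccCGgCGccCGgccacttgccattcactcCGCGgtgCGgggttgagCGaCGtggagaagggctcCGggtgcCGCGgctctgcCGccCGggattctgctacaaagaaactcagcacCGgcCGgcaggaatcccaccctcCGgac
C1ql3: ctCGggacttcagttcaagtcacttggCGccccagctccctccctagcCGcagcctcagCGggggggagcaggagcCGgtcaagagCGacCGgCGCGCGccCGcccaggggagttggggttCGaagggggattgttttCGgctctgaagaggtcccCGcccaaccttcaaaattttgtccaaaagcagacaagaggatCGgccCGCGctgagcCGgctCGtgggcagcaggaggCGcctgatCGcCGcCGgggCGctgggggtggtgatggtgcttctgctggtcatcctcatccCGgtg
Ebf1: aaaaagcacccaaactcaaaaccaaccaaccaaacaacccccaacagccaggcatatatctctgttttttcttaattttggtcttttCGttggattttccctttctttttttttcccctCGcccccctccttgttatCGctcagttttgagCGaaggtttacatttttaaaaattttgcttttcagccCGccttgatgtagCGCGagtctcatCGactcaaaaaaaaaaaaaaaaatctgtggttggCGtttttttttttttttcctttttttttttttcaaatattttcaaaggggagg
Neither of the 8-base sites of Capicua searched on both strands, TGAATGAA and TGAATGGA, is in these windows. Of the 9026 tested genes with a window, 165 (1.83%) had a site at any of their starts. So did 2.62% of such genes with a positive and 2.19% of those with a negative difference, and 2 of 12 on the Capicua target list (16.7%).

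Of the opposing genes that rose in Tg and fell in KI, 3 were on the oligodendrocyte list (*Cldn11*, *Mal*, *Myrf*) and 1 on the Bergmann glia and astrocyte list (*Gja1*). *Cldn11*, the claudin of myelin, was at 67.5, 73.2 and 76.6 FPKM in WT FVB/NJ and 115, 90.2 and 96.1 in Tg, and at 99.5, 73.5 and 78.0 in WT C57BL/6J and 51.1, 55.1 and 58.3 in KI. *Etnppl*, an astrocyte enzyme of phospholipid breakdown, had changes of 1.07 ± 0.14 in Tg and -0.55 ± 0.14 in KI, the largest rise in Tg among the 6 that the naming rule chose. Its level was 15.4, 17.7 and 14.6 FPKM in WT FVB/NJ and 42.7, 31.8 and 27.3 in Tg, and 32.0, 28.7 and 32.2 in WT C57BL/6J and 18.5, 22.2 and 22.7 in KI. *Lix1*, *Ctxn2* and *Tmem132b* had differences of 1.45 ± 0.24, 1.32 ± 0.23 and 1.24 ± 0.22. With the covariate of neighboring brain genes, 18 of the 62 genes had a difference of the opposite sign, and limma called 0 opposing genes. Of those that fell in Tg and rose in KI, *Ncald*, the calcium sensor neurocalcin delta, was at 72.7, 57.5 and 72.2 against 50.3, 50.1 and 50.9 FPKM for Tg and 68.1, 74.8 and 69.0 against 96.2, 89.9 and 87.0 FPKM for KI. *Pkib*, an inhibitor of protein kinase A, and *Maml3*, a Notch coactivator, had differences of -0.95 ± 0.15 and -0.77 ± 0.13, and *Fam184b* and *Slc16a14*, a monocarboxylate transporter family member, -1.05 ± 0.14 and -0.93 ± 0.17.

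**Figure D4:**
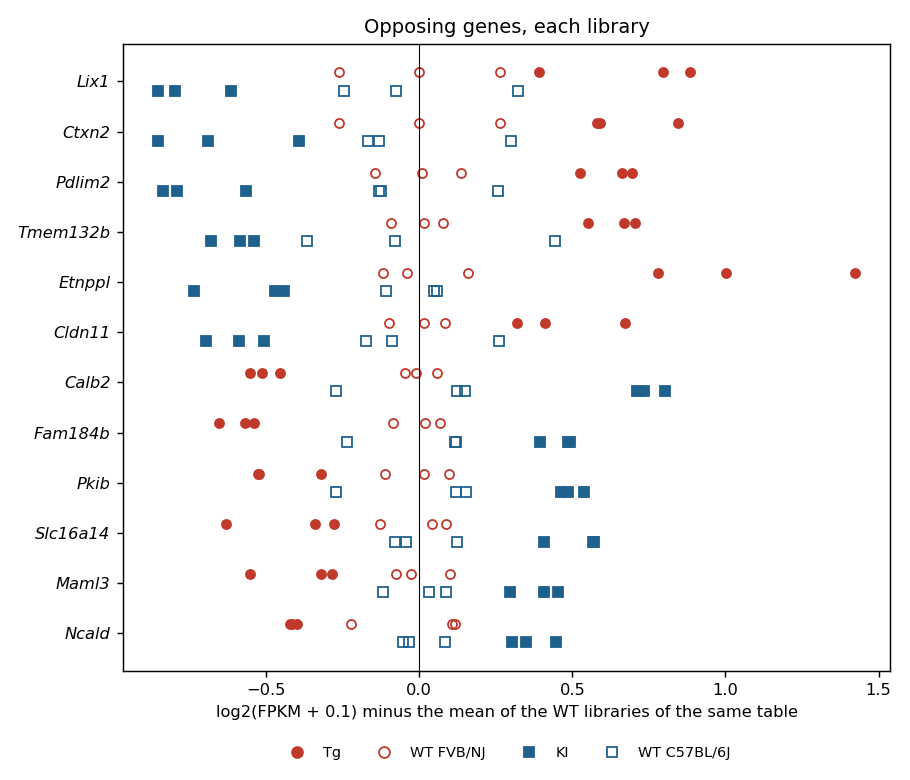
Opposing genes in each library, as log2(FPKM + 0.1) minus the mean of the WT libraries of the same table; circles are the Tg table and squares the KI table, filled for mutants and open for WT. In the upper 6 genes all Tg points lie right and all KI points left of their WT points, and in the lower 6 genes the reverse.

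Oligodendrocyte genes leaned up in Tg and down in KI. All 18 genes tested had a Tg change above 0 and a KI change below 0. Of these, 13 had a called positive difference, 4 were called higher in Tg and 5 lower in KI (over all genes 5.58%, 3.2% and 4.75%). The Tg count was 0 without WT FVB/NJ replicate 1, 1 without WT FVB/NJ replicate 2 or Tg replicate 1 or 2, 2 without Tg replicate 3 or KI replicate 2 and 10 without WT C57BL/6J replicate 1. The KI count was 1 without KI replicate 1, 2 without KI replicate 2 or WT C57BL/6J replicate 3, 3 without KI replicate 3 or WT C57BL/6J replicate 1 and 9 without WT C57BL/6J replicate 2. The medians were 0.33 in Tg and -0.41 in KI. *Mal*, a myelin proteolipid, was at 54.7, 60.9 and 61.8 FPKM in WT FVB/NJ, 89.8, 75.3 and 73.3 in Tg, 87.8, 63.2 and 69.4 in WT C57BL/6J and 47.7, 51.3 and 52.0 in KI, and *Myrf*, the transcription factor of myelination, had a difference of 0.72 ± 0.13. *Cnp*, a myelin phosphodiesterase, had one of 0.39 ± 0.067. WT C57BL/6J replicate 1 had the highest summed level of the list in its table, 3428 FPKM against 2281 and 2547 in the other WT C57BL/6J and 1972 to 1986 in KI libraries. With that library left out 10 genes had a called positive difference, and the count was 7 without KI replicate 1 or 3, 8 without KI replicate 2, WT FVB/NJ replicate 1 or Tg replicate 3, and 9 to 15 with any other library left out. With the covariate of neighboring brain genes none of these differences was called, and the median difference went from 0.76 to -0.69.

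Astrocyte and Bergmann glia genes split. Of 17 tested, 5 had a called positive and 3 a called negative difference (47.1%, against 11.7% of all genes). *Gfap*, the intermediate filament of reactive astrocytes, was at 49.7, 76.5 and 61.6 FPKM in WT FVB/NJ and 116.6, 125 and 133 in Tg, and at 84.96, 55.1 and 59.7 in WT C57BL/6J and 51.6, 51.7 and 50.9 in KI. It was called in Tg, 1.02 ± 0.16, and not in KI, -0.35 ± 0.16, and the difference was 1.36 ± 0.22 (adjusted p = 0.00349). *Gja1*, connexin 43, rose in Tg and fell in KI, 0.53 ± 0.083 and -0.39 ± 0.083. Against these, *Tnc*, the matrix protein tenascin C, went from 4.91, 3.23 and 4.19 to 0.641, 0.945 and 0.824 FPKM in the Tg table and from 3.75, 4.33 and 3.96 to 4.95, 5.21 and 4.50 FPKM in the KI table, a difference of -2.49 ± 0.22. *Slc1a3*, the glutamate transporter of Bergmann glia, had a difference of -0.50 ± 0.092, with a called fall in Tg only.

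Microglia genes leaned the way of the oligodendrocyte genes with fewer calls. All 15 tested had a higher value in Tg and a lower one in KI than in WT. Of these, 5 had a called positive difference and 4 were called higher in Tg (over all genes 5.58% and 3.2%). In KI limma called 0 of them and gave 3 at an unadjusted p below 0.05. The medians were 0.62 in Tg and -0.22 in KI, and the called positive differences numbered 11 without WT FVB/NJ replicate 2 and 4 to 6 with any other library left out. The microglia genes called in Tg numbered 11 without WT FVB/NJ replicate 2, 8 without WT C57BL/6J replicate 1, 2 without WT FVB/NJ replicate 1 or 3 and 3 without Tg replicate 1. *Trem2*, a lipid receptor of microglia, was at 3.02, 3.70 and 2.74 FPKM in WT FVB/NJ and 5.06, 5.50 and 5.59 in Tg, and at 4.42, 3.12 and 3.26 in WT C57BL/6J and 2.55, 3.08 and 2.80 in KI, a difference of 1.10 ± 0.20 (adjusted p = 0.00516). *Cx3cr1*, the fractalkine receptor, had one of 0.89 ± 0.19. Of 8 complement genes limma called none, with 3 at an unadjusted p below 0.05, the difference of *C4b* being 1.18 ± 0.42 (adjusted p = 0.0915), and replicate 2 of WT FVB/NJ was at 132 FPKM in their sum against 66.6 and 78.9 in the other 2 controls. The complement genes with a called positive difference numbered 2 without that library and 1 without WT C57BL/6J replicate 3. Tg replicate 1 stood apart as well, at 177 FPKM against 108 and 115 in the other Tg libraries. The summed level of the microglia genes was 295 FPKM in Tg replicate 1 against 202 and 200, and 200.2 in replicate 2 of WT FVB/NJ against 124 and 133.

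Granule cell genes, from the most numerous neurons of the cerebellum, leaned the other way. Of 20 tested, all 20 had a KI change above 0, 2 a Tg change above 0, and 8 a called negative difference (40%, against 6.09% of all genes). *Pax6*, a transcription factor of granule cells, was at 33.1, 32.2 and 31.4 FPKM in WT FVB/NJ and 28.9, 28.6 and 27.8 in Tg, and at 25.9, 36.0 and 33.2 in WT C57BL/6J and 44.7, 43.0 and 45.2 in KI, a difference of -0.68 ± 0.13. *Cadps2*, a vesicle priming factor, had one of -1.02 ± 0.19. WT C57BL/6J replicate 1 was the lowest of its table in the summed level, 1847 FPKM against 2651 and 2552 in the other controls, and without it the median KI change went from 0.20 to 0.05. The called negative differences then numbered 7, 11 without WT C57BL/6J replicate 2, and 3 or 4 with any 1 KI library, WT FVB/NJ replicate 1 or Tg replicate 3 left out. With the covariate the median difference went from -0.52 to 0.53 and none was called. Of 15 genes of molecular layer interneurons and Golgi cells, 4 had a called positive difference (26.7%, against 5.58% of all genes). These included *Gad2*, a GABA-synthesizing enzyme, with 0.41 ± 0.11, *Ptprk*, a receptor phosphatase, with 0.45 ± 0.10 and *Nxph1*, a neurexin ligand, with 0.92 ± 0.19. The fourth was *Sst*, for which tissue taken with the cerebellum and the KI genotype cannot be told apart, as described above.

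Genes of the postsynaptic glutamate signaling machinery had negative differences beyond those on the Purkinje cell list. Of 29 scaffold and signaling genes tested, 21 were down-regulated in Tg, 7 in KI, and 16 had a called negative difference (over all genes 7.52%, 4.75% and 6.09%). Leaving out the 9 shared with the Purkinje cell list, 8 of 20 did. The KI count was 12 without WT C57BL/6J replicate 1, 4 without KI replicate 1 and 5 to 9 with any other library left out, while the Tg count ran from 19 to 23 and the negative differences from 13 to 19. *Arhgef33*, a guanine nucleotide exchange factor, was at 56.3, 53.8 and 43.4 against 13.9, 15.5 and 14.99 FPKM for Tg and 47.1, 56.96 and 53.8 against 35.6, 39.7 and 36.7 FPKM for KI. Among 22 glutamate receptor genes 5 had a called negative difference (6.09% of all genes did), among them *Grik1*, a kainate receptor subunit, with -0.84 ± 0.12. They numbered 2 without KI replicate 1 or WT FVB/NJ replicate 1 and 3 without KI replicate 2 or 3 or Tg replicate 2 or 3. The 3 positive ones included *Grm5* with 2.08 ± 0.28 and *Grm3* with 0.51 ± 0.086.

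Ion channel and calcium store genes had called differences of both signs. Of 28 calcium pump, store and buffer genes, 14 had a called negative and 2 a called positive difference (57.1%, against 11.7% of all genes). Of the 23 not on the Purkinje cell list, 9 were negative. The count of 14 was 7 without KI replicate 1 or 2, 9 without WT FVB/NJ replicate 1 or Tg replicate 3, and 10 to 14 with any other library left out. Of 41 potassium channel genes, 11 were negative and 9 positive (48.8%, against 11.7% of all genes). The negative ones were led by *Kcnab1* with -0.93 ± 0.084 and *Kcnmb4* with -1.17 ± 0.15. The positive ones were led by *Kcnc2* with 2.63 ± 0.36 and *Kcnip2* with 2.58 ± 0.29. The 11 were 6 without KI replicate 1 or WT FVB/NJ replicate 1, and 7 without KI replicate 2 or Tg replicate 3. The negative pair was called in Tg and not in KI, and the positive pair in KI and not in Tg. Of 16 GABA and glycine receptor genes, 4 were positive and 2 negative (37.5%, against 11.7% of all genes). The positive ones numbered 0 without KI replicate 1 or 2 or WT FVB/NJ replicate 1, 1 without Tg replicate 3, 2 without KI replicate 3 and 3 to 6 with any other library left out. The negative ones numbered 1 with any 1 KI library, WT FVB/NJ replicate 1, Tg replicate 2 or Tg replicate 3 left out. *Gabra6*, a subunit of granule cells, had -0.69 ± 0.17 and *Gabbr2*, a GABA-B subunit, -0.53 ± 0.10. Voltage-gated calcium channel genes had 3 negative and 1 positive of 15 (26.7%), and sodium channel genes 1 and 1 of 10 (20%), against 11.7% of all genes. The positive sodium channel gene was *Scn3b*. The negative calcium channel genes numbered 1 without KI replicate 1 or 2, WT FVB/NJ replicate 1 or Tg replicate 3. Without WT C57BL/6J replicate 2 the calcium channel counts were 5 and 2 and the sodium channel counts 1 and 3, and 2 sodium channel genes were negative without Tg replicate 1 or WT C57BL/6J replicate 3.

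Some genes moved together in both models. *Ntf3*, neurotrophin 3, was at 3.54, 3.00 and 2.64 FPKM in WT FVB/NJ and 5.30, 6.16 and 5.80 in Tg, and at 3.16, 4.18 and 4.19 in WT C57BL/6J and 7.17, 6.49 and 6.37 in KI. It rose by 0.90 ± 0.13 and 0.79 ± 0.13, and the difference of 0.11 ± 0.18 had a 95% interval of -0.28 to 0.49. *Cemip*, which binds hyaluronan, and *Gprin3*, an inducer of neurite outgrowth, rose in both, with differences of -0.08 ± 0.17 and -0.20 ± 0.15, neither called. *Igfbp5*, an IGF-binding protein, fell from 77.3, 72.7 and 73.1 to 35.6, 35.0 and 39.9 FPKM in the Tg table and from 39.7, 45.3 and 43.2 to 16.5, 18.8 and 16.7 FPKM in the KI table, a difference of 0.28 ± 0.10 (adjusted p = 0.0777). *Mdfi*, an inhibitor of MyoD family factors, fell by 1.13 ± 0.15 and 1.51 ± 0.15. Among cell death genes, *Hrk*, a BH3-only protein that the naming rule took from the shared rises, was at 2.197, 1.96 and 1.87 against 7.48, 7.84 and 7.17 FPKM for Tg and 2.07, 2.03 and 2.34 against 3.16, 2.83 and 4.05 FPKM for KI. It rose in both models and further in Tg, with a difference of 1.25 ± 0.17 (adjusted p = 0.00121). Of the 26 cell death genes tested 2 had a called positive and 1 a called negative difference (11.5%, against 11.7% of all genes).

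Of 17 genes of the Capicua and ataxin-1 partner list, 3 (17.6%, against 11.7% of all genes) had a called negative difference and none a positive one. *Cic*, Capicua itself, and *Atxn1l*, the paralog of *Atxn1*, both chosen after their values were seen, had differences of -0.19 ± 0.12 and -0.20 ± 0.089, neither called. The called ones were *Rora*, a nuclear receptor of Purkinje cells, with -0.47 ± 0.081, *Anp32a*, an ataxin-1 binding protein, with -0.33 ± 0.075, and *Ncor1*, a corepressor, with -0.26 ± 0.078. Of 21 genes known as Capicua targets, 4 had a called negative and 3 a called positive difference (33.3%, against 11.7% of all genes). Of these targets 0 were opposing. The negative ones numbered 1 without KI replicate 1 or 2 and 2 without Tg replicate 3 or WT C57BL/6J replicate 1, and the positive ones 1 without KI replicate 1, Tg replicate 3 or WT FVB/NJ replicate 1. *Etv4*, an ETS factor that Capicua represses, was at 5.95, 5.11 and 5.69 FPKM in WT FVB/NJ and 2.65, 3.06 and 3.14 in Tg, and at 5.89, 5.61 and 6.96 in WT C57BL/6J and 8.48, 8.12 and 7.03 in KI. All Tg libraries lay below and all KI libraries above their controls, but only the Tg change of -0.90 ± 0.10 was called (KI adjusted p = 0.0643), and the difference was -1.25 ± 0.15. *Etv1*, of the same family, had -0.71 ± 0.17, and *Vgf*, a neuropeptide precursor, 1.04 ± 0.19.

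Interferon-stimulated genes had calls in KI. Of 26 tested, limma called 5 higher in KI and none in Tg, where 2 had an unadjusted p below 0.05. The difference was called, and negative, for 4 (15.4%, against 11.7% of all genes). The KI count was 2 without KI replicate 1 or 2 or WT C57BL/6J replicate 3, 3 without WT C57BL/6J replicate 2 and 4 to 7 with any other library left out, and 1 was called in Tg without KI replicate 1 or WT C57BL/6J replicate 1. The count of negative differences was 2 without KI replicate 1 or KI replicate 2, and 4 or 5 with any other library left out. *Irf7*, a transcription factor of the response, was at 1.32, 0.824 and 0.864 FPKM in WT C57BL/6J and 2.35, 2.54 and 1.92 in KI, and at 0.987, 0.684 and 0.682 in WT FVB/NJ and 0.401, 0.799 and 0.664 in Tg, a difference of -1.44 ± 0.34 (adjusted p = 0.0187). *Ifi203*, which shares sequence with other genes of its family and may therefore be miscounted, and *Ifit1*, an antiviral protein, had -1.26 ± 0.28 and -1.19 ± 0.28.

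The remaining lists are given by their counts, to be read beside the 11.7% of all genes with a called difference. Choroid plexus epithelium genes had the largest gap between medians, 0.85 in Tg and -0.74 in KI, with 0 of 16 called by limma and 0 at an unadjusted p below 0.05, the libraries of a group differing widely in their sum. *Enpp2*, autotaxin, was at 45.3, 147 and 359.9 FPKM in KI and 168, 358 and 134 in WT C57BL/6J. None of 15 leptomeningeal fibroblast genes and none of 17 immediate early genes had a called difference, nor did either of the 2 erythrocyte genes tested. At an unadjusted p below 0.05 limma gave 6, 1 and 2 of them. Of 25 chaperone genes 1 had a called difference, *Cryab*, alpha-B crystallin, with 0.68 ± 0.14, and of 19 cholesterol synthesis genes 1, *Mvd*, with -0.42 ± 0.12. The negative count of the cholesterol genes was 1 without Tg replicate 2 or WT FVB/NJ replicate 3 and 0 with any other library left out, and 3 leptomeningeal genes had a called positive difference without WT C57BL/6J replicate 3. Clock genes had 2 positive and 1 negative differences of 14, including *Arntl*, the activator BMAL1, with -0.61 ± 0.10. Axon guidance and adhesion genes had 9 positive and 6 negative of 50, growth factor genes 5 and 4 of 30, and unipolar brush cell genes 1 and 3 of 8. These are 30.0% of the axon guidance, 30.0% of the growth factor, 50.0% of the unipolar brush cell and 21.4% of the clock genes tested. The negative axon guidance genes numbered 3 without KI replicate 1 or 2. The growth factor counts were 3 and 2 without KI replicate 1 or 2, WT FVB/NJ replicate 2, Tg replicate 2 or WT C57BL/6J replicate 1, 3 and 3 without Tg replicate 3, and 4 and 2 without WT C57BL/6J replicate 3. The clock counts were 1 and 1 without KI replicate 2 and 2 and 2 without WT C57BL/6J replicate 2. *Ntrk2*, the receptor TrkB, was opposing, with 0.30 ± 0.045 in Tg and -0.18 ± 0.045 in KI, and *Sema7a*, a membrane-bound semaphorin, fell in both models with a difference of -0.42 ± 0.066.

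**Figure D5:**
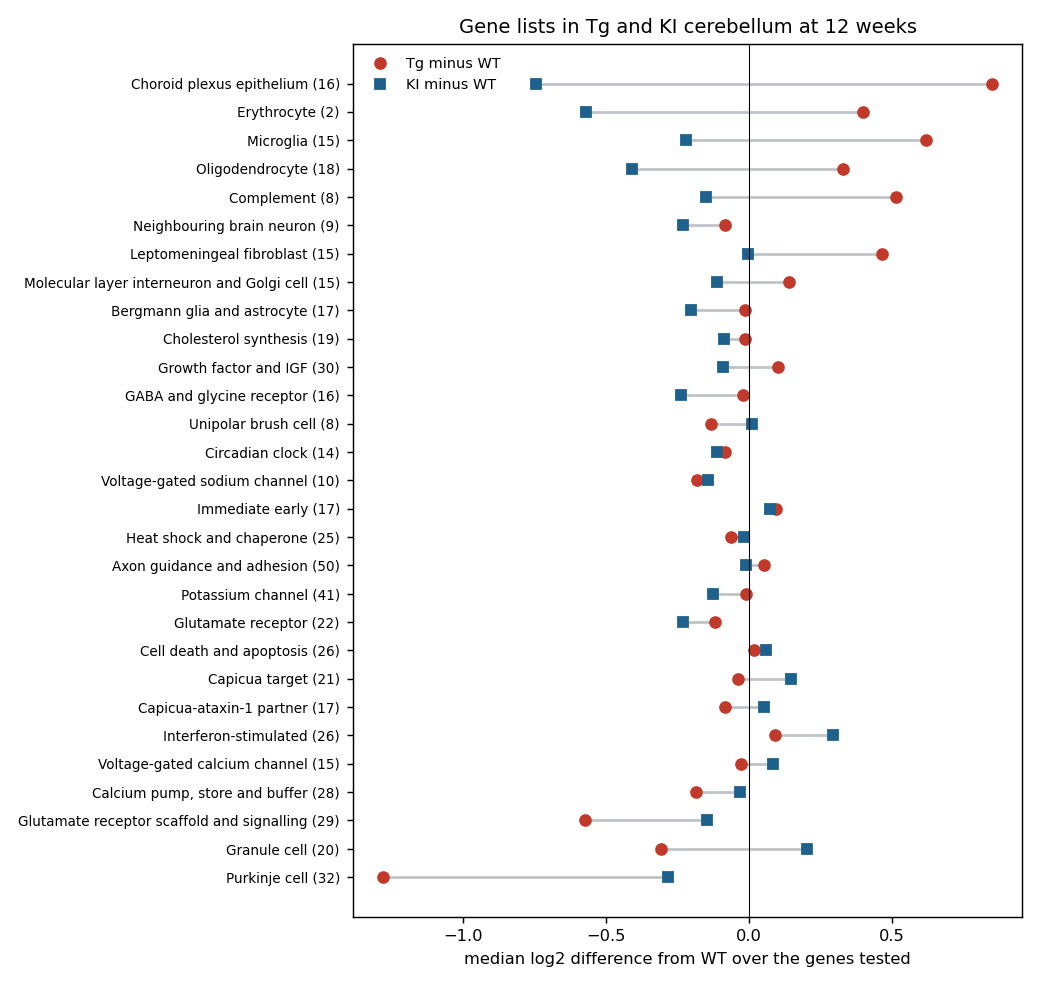
Median log2 change from WT of the gene lists in Tg (circles) and KI (squares), over the number of genes tested given in parentheses; a line joins the 2 models. Purkinje cell genes have the lowest Tg median, -1.28, and choroid plexus genes the widest gap, from -0.74 in KI to 0.85 in Tg.

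Genes near the altered locus were called in KI at a rate close to that of all genes. Within 10 Mb of *Atxn1* on chromosome 13, by the deposited positions, 121 genes were tested and 9 were called in KI (7.44%, against 7.17% of all genes), and 16 had a called difference (13.2% against 11.7%).

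The same contrast was taken at 5 weeks, with each age normalized on its own. In a fit of the 5 week libraries alone 102 of 12350 genes had a called difference, 96 of them negative. Purkinje cell genes made up 18 of the negative ones, with medians of -0.91 in Tg and -0.22 in KI. *Rgs8* already had a difference of -1.13 ± 0.10 and *Calb2* one of -0.31 ± 0.12. The opposing genes of 12 weeks had medians close to WT at 5 weeks. They were chosen by their values at 12 weeks, and this choice alone makes smaller values in other libraries likely. Of 37 that rose in Tg and fell in KI and could be tested then, 31 had a positive difference with a median of 0.12, and of 23 of the other kind 20 had a negative one with a median of -0.22, against -0.01 over all genes. The oligodendrocyte medians at 5 weeks were 0.05 in Tg and -0.01 in KI. The change of the Tg minus KI difference between the ages was tested over 24 libraries for 11808 genes, and limma called 0 (0%), with 1963 at an unadjusted p below 0.05. Without replicate 1 of WT C57BL/6J at 5 weeks it called 224, without replicate 2 of WT C57BL/6J at 12 weeks 28, and without replicate 2 of WT FVB/NJ at 12 weeks 6. It called 2 without Tg or KI replicate 3 at 5 weeks or Tg replicate 1 at 12 weeks, and 0 with any other library left out. The difference of *Pdlim2* changed by 1.26 ± 0.22 (adjusted p = 0.0597) and that of *Rgs8* by -0.53 ± 0.17 (adjusted p = 0.154).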

How the data were processed

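Male mice of both SCA1 models and their WT controls gave poly-A selected, paired-end cerebellar libraries, 3 per group and age. According to the labels and the study's methods the authors aligned reads to mm10 with TopHat2 2.1.0, and deposited FPKM values that Cufflinks 2.2.1 and Cuffnorm produced within each table of 6 libraries, so a level in one table cannot be set against one in another. The tables also hold the authors' group averages and Cuffdiff comparison (fold change, p-value, q-value, call), which were not used. Read counts and depth are not given in the sources used here, and precision comes from the number of libraries.

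Entries without a gene symbol (13.1% and 12.8% of the 12 week tables) and symbols with several entries were left out. limma 3.58.1 (R 4.3.3) was fitted to log2(FPKM + 0.1) with a mean-variance trend over 12 libraries and a table term, keeping genes that averaged 0.5 FPKM or more in every one of the 4 groups. Contrasts were Tg against WT, KI against WT and their difference, Benjamini-Hochberg adjusted over all genes tested, with calls at adjusted p below 0.05, and intervals are 95%. The offset of 0.1 understates changes of low genes. The change between ages was fitted over 24 libraries with a term per table. The fits were tested on simulated data.

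Samples were grouped by the labels. Genes averaging 1 FPKM or more in every group were named by rule: the 6 highest and 6 lowest called differences, the 6 opposing genes of each kind and the 4 shared genes of each direction with the largest smaller change, and, with no floor, up to 4 members of each list by p. The members and lists were chosen with earlier results of these data known. Gene lists were described by counts and medians, with no list test, and some genes and a list are not reported here by name. Alternatives were the pseudocount, the filter, the trend, scaling by the median, the entry per symbol, library weights, a replicate block, each table alone, each library left out and a covariate of neighboring brain genes. Replicate numbers were not taken as pairs in the main fit. Positions are GENCODE vM21. Promoter windows were set at RefSeq starts (GRCm38.p6), matched by symbol for 9026 genes, and figures were drawn with matplotlib 3.10.9.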

Additional observations from a re-analysis of the deposited data

Results flagged for a closer look

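A test of the difference itself flagged 1437 genes whose change from WT was unlike in the 2 models (limma, adjusted p below 0.05), and among them 38 that rose in Tg and fell in KI and 24 that fell in Tg and rose in KI. The 12 opposing genes that the naming rule chose were flagged by the same test. The sign of each change was the same in 3 of 3 mutant libraries of its model, which the calls nearly required. On the log2 scale the Tg minus KI difference was 1.45 ± 0.24 for *Lix1*, 1.32 ± 0.23 for *Ctxn2*, 1.36 ± 0.16 for *Pdlim2*, 1.24 ± 0.22 for *Tmem132b*, 1.62 ± 0.20 for *Etnppl* and 1.06 ± 0.16 for *Cldn11*. It was -1.26 ± 0.13 for *Calb2*, -1.05 ± 0.14 for *Fam184b*, -0.95 ± 0.15 for *Pkib*, -0.93 ± 0.17 for *Slc16a14*, -0.77 ± 0.13 for *Maml3* and -0.78 ± 0.11 for *Ncald*. Of these 12, *Pdlim2* and *Calb2* were opposing with every library left out in turn. Groups of 3 are too small for a search for single libraries far from the rest.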

How the results depend on the processing

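2739 of 2872 values of named genes under the alternatives kept their side of the threshold, 100 were no longer called and 33 were newly called. No value called in the main fit or under the alternative changed sign, and a change of sign without a call was not counted. The covariate below was not among these alternatives. The count of differences was 1419 with a pseudocount of 1 FPKM, 1516 with no filter, 1199 with a filter of 2 FPKM, 1252 without the trend and 1427 after scaling by the median, all within 1.5 times 1437. Library weights gave 2865 differences, 2377 calls in Tg, 3483 in KI and 331 opposing genes. With the covariate of neighboring brain genes, chosen after seeing the data, limma gave 0 differences, 712 calls in Tg, 50 in KI and 0 opposing genes, and the difference of 58 of 138 named genes had the opposite sign. For library weights the cause was not tested. Under the covariate the median SE of the difference was 0.34 in place of 0.11. The change between ages had 2 calls after scaling by the median (*Cd38* and *Pdlim2*).

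The replicate numbers were not taken as pairs in the main fit. The deviations of same-numbered mutant and WT libraries had correlations of -0.31 to 0.29, and only Tg replicate 3 and KI replicate 2 correlated best with their own number. In groups of 3 such correlations can neither show nor exclude pairs. With the number as a block the fit gave 944 differences, 970 calls in Tg, 516 in KI and 34 opposing genes, and 0 changes between ages. With each library left out in turn the counts ran from 736 to 1834 for the difference, 800 to 1851 for Tg, 360 to 1031 for KI, 14 to 98 for opposing genes and 0 to 224 for the change between ages.

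With 3 mice per group and no read counts, the model cannot be told apart from strain, table or dissection, and a gene without a call is not shown to respond alike in both models.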

Other observations

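Opposing genes on the gene lists that were not described above were named after their values were seen. *Efnb3*, an ephrin of axon guidance, changed by 0.39 ± 0.11 in Tg and -0.42 ± 0.11 in KI. *Cntn6*, a contactin of granule cells, changed by -0.39 ± 0.077 and 0.33 ± 0.077, and *Kcnj3*, a G protein-gated potassium channel subunit, by -0.38 ± 0.078 and 0.33 ± 0.078. *Ahi1*, a ciliary protein, was the only 1 of 28 opposing genes of its kind with a promoter window that held one of the Capicua sites searched, and changed by 0.34 ± 0.092 and -0.50 ± 0.092. None of the 21 genes of the other kind with a window had a site.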
